A study of Oryza sativa with 6 samples.

Results

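Transcripts of 10 rice genes for WRKY transcription factors, of 29923 loci and microRNA precursor names on the array, were measured in roots given copper or cadmium. The genes are WRKY76, WRKY62, WRKY28, WRKY71, WRKY45, WRKY13, WRKY53, WRKY70, WRKY24 and WRKY72, and 23 of the 42477 probes carry their locus numbers. The genes were picked by locus number as WRKY factors known from rice defence, by a choice made with earlier results of these arrays known. Their ratios to the control, and the differences between the metals, are therefore given as a description, with no p-value. The array files give locus numbers and no gene names. The names come from the list that defined the genes, and 4 of the 10 names also stand in the RefSeq gene table of assembly ASM3414082v1, which holds none of the locus numbers.

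RNA came from roots of 6-day-old seedlings of the rice cultivar TN-67 that had been kept in 5 µM copper, in 25 µM cadmium or in water. Each of the 6 two-colour arrays carried RNA of metal-treated roots in the red dye Cy5 and RNA of water roots in the green dye Cy3, with 3 arrays for copper and 3 for cadmium. Each group's arrays are labelled as biological replicates, and the time of exposure is not stated in the labels. The study names 3 control replicates, fewer than its 6 arrays, and copper and cadmium arrays may therefore have shared control RNA. A value below is a log2 ratio of metal over water on 1 array, so 1 stands for 2-fold more signal in the metal-treated roots and 3 for 8-fold.

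WRKY proteins are plant transcription factors named for a conserved amino acid motif in their DNA-binding domain, and they bind W-box elements in the promoters of stress and defence genes. In rice some of them switch defence genes on, others hold them in check, and many are themselves induced by pathogens, wounding or defence hormones. Some act downstream of the hormone salicylic acid, and others are phosphorylated by MAP kinases. Whole roots were measured, so more cells with a transcript and more transcript per cell cannot be told apart.

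All 10 genes had higher mean signals in metal-treated roots than in water roots, with copper and with cadmium alike. The sizes divided the genes by metal. WRKY76, WRKY62 and WRKY45 were 10.03-fold to 33.7-fold higher in copper roots than in water roots, and 1.49-fold to 1.61-fold higher in cadmium roots than in water roots. In the scanner's processed signals the fold changes of WRKY76 and WRKY62 with copper were 1.87 and 2.41 times as large. Those of WRKY28 and WRKY70 with copper were 2.76 and 7.54 times as large. WRKY28, WRKY71, WRKY53 and WRKY24 were over 4-fold higher with both metals, and their means were higher with cadmium. WRKY70 was also higher with cadmium, and its changes against water are lower bounds. WRKY13 had the lowest mean with each metal on its brightest probe. Its other probes gave 0.78 and 1.22 with copper, and 0.74 and 1.09 with cadmium.

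**Figure D1:**
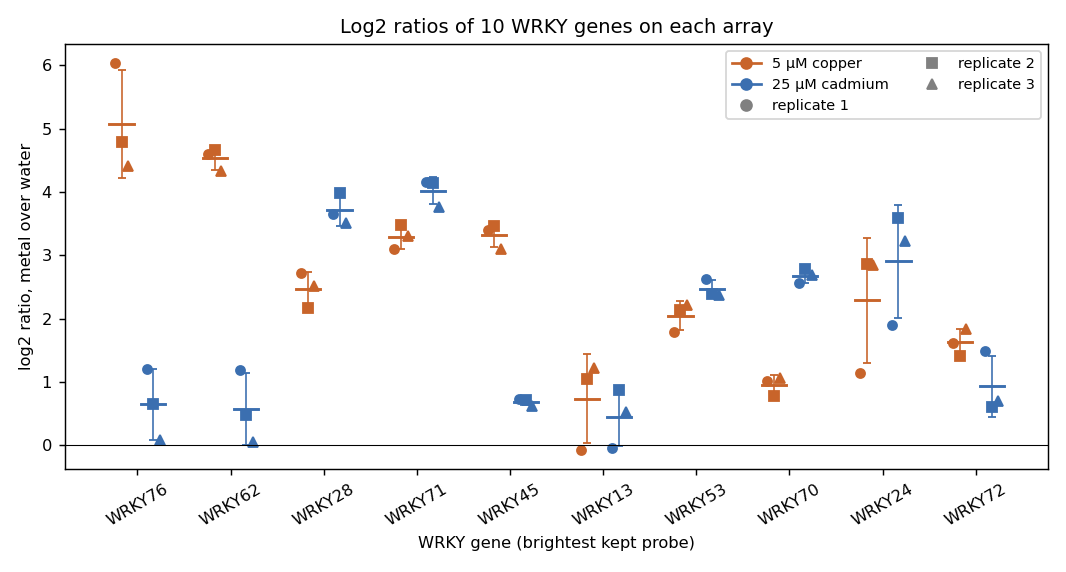
Log2 ratio of metal over water (vertical axis) for each of the 10 WRKY genes (horizontal axis), 1 point per array, with copper left of cadmium, the mean as a bar and the SD as a whisker (n = 3 arrays per metal). WRKY76, WRKY62 and WRKY45 lie far higher with copper, while WRKY28, WRKY71 and WRKY70 lie higher with cadmium.

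Across the 10 genes the median log2 ratio was 2.38 with copper and 1.70 with cadmium, against medians of 0.02 and 0.01 over the 23425 genes tested. In the fit of all genes (limma, adjusted p under 0.05), 9 of the 10 were called higher with copper, where 25.4% of all genes were, and 8 of the 10 were called higher with cadmium, where 21.1% were. WRKY13 was not called with either metal, and WRKY76 was not called with cadmium. No gene of the 10 was called lower. At 2-fold or more the calls numbered 8 with copper (7.44% of all genes) and 5 with cadmium (5.23%). Means of 8-fold or more were reached by 4 genes with copper (0.67% of all genes) and by 2 with cadmium (0.657%). All 10 genes passed the filter on dim probes, and all were well above background in the metal channel on every array, so the filter alone favours genes that the metals light up. The shares of all genes stand beside these counts for scale only, since the genes were chosen with such ratios known.

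WRKY76 and WRKY62 are closely related factors of the family's group IIa, which in rice are known as repressors of defence. WRKY76 is known to hold back defence genes, among them genes of phytoalexin synthesis, and WRKY62 was found as a partner of the immune receptor XA21. Their locus numbers, Os09g0417600 and Os09g0417800, place them side by side on chromosome 9, and the RefSeq table lists 0 genes between them. On the 3 copper arrays WRKY76 had log2 ratios of 6.03, 4.79 and 4.41, and on the 3 cadmium arrays 1.21, 0.65 and 0.09. Every copper array thus lay far above every cadmium array. The mean was 5.08 ± 0.85 with copper and 0.65 ± 0.56 with cadmium (SD, n = 3 each), a difference of 4.42 ± 0.43 (SE). Among 23425 genes this ranked 3 for the rise with copper, and 1 for the difference in favour of copper.

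WRKY62 followed the same course. Its log2 ratios were 4.60, 4.67 and 4.33 on the copper arrays, and 1.18, 0.49 and 0.06 on the cadmium arrays. The means of 4.53 ± 0.18 with copper and 0.58 ± 0.57 with cadmium (SD, n = 3 each) differed by 3.96 ± 0.26 (SE), rank 5 of all genes. In scanner units the signal was 2210, 3010 and 2827 in copper roots, against 51.4, 37.4 and 56.3 in the water roots of the same arrays. On the cadmium arrays it was 141, 66.3 and 71.3 in cadmium roots, against 41.3, 34.0 and 74.2 in water roots. The water signals were alike on both sets of arrays, and the large signals were those of the copper roots. For both genes the cadmium ratio was highest on replicate 1, which lay on a slide of its own. The call of WRKY62 with cadmium was lost in 11 of 17 alternatives, and WRKY76 with cadmium was called in 8 of 17, the fit with the replicate number as a block among them. In 2 of those 8, the shared slide alone and the fit without copper replicate 1, another probe of WRKY76 was the brightest and took its place.

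Of all 22610 genes with a value on every array, WRKY62 had the pattern closest to that of WRKY76, at a Euclidean distance of 1.45 over the 6 log2 ratios. For WRKY62, 2 loci were closer than WRKY76, the nearest being Os09g0441400 at 1.096. The neighbouring loci did not share the size of the response. Os09g0417500, just before WRKY76, had log2 ratios of 0.30 ± 0.38 with copper and 0.26 ± 0.14 with cadmium (SD, n = 3 each), with limma adjusted p = 0.112 and 0.168. Os09g0418000, just after WRKY62, rose with both metals, by 0.95 ± 0.15 with copper and 0.89 ± 0.36 with cadmium (SD, n = 3 each, limma adjusted p = 0.00102 and 0.00197). The probe sequences are not used here, so signal passing between these related transcripts was not tested.

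**Figure D2:**
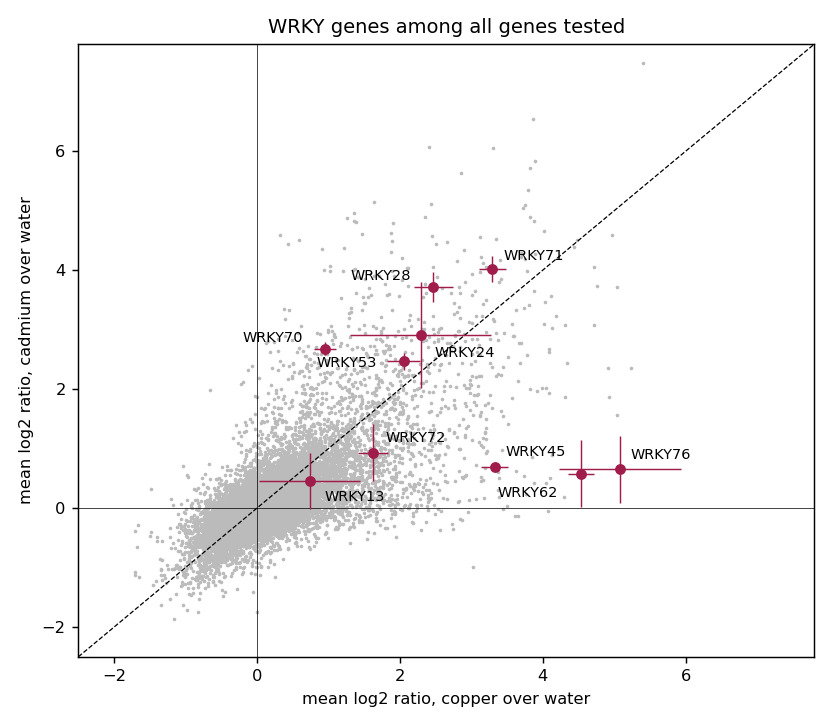
Mean log2 ratio with copper (horizontal axis) against that with cadmium (vertical axis), for all 23425 genes in grey and the 10 WRKY genes in dark red with SD bars (n = 3 arrays per metal). The dashed line marks equal values. WRKY76, WRKY62 and WRKY45 lie far to the right of it, and WRKY28, WRKY71, WRKY53, WRKY70 and WRKY24 lie above it.

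WRKY28 and WRKY71, the other group IIa factors among the 10, leaned the other way. WRKY28 (Os06g0649000) is known as a repressor of basal defence against rice blast. Its log2 ratios were 2.72, 2.17 and 2.51 on the copper arrays, and 3.65, 3.99 and 3.51 on the cadmium arrays. The groups did not overlap, and the difference was -1.25 ± 0.18 (SE), or 2.38-fold more with cadmium than with copper. For WRKY28 the water roots gave a signal well above background on only 1 copper array and on 2 cadmium arrays. In the scanner's processed signals, which differ in background correction, offset and normalization together, its means were 3.94 with copper and 5.44 with cadmium. The call of the difference was lost there, at -1.51. Median centring in place of loess gave 2.44 and 3.64.

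WRKY71 (Os02g0181300) is known to repress gibberellin responses in the grain and to raise resistance to bacterial blight when overexpressed. Its log2 ratios were 3.10, 3.48 and 3.30 on the copper arrays, and 4.15, 4.15 and 3.77 on the cadmium arrays. As processed here it had the highest cadmium mean of the 10 genes, 4.02 ± 0.22 (SD, n = 3), which was 16.3-fold. In the scanner's processed signals it averaged 4.03 with cadmium, below WRKY28 at 5.44 and WRKY70 at 5.17. The copper mean of 3.29 ± 0.19 (SD, n = 3) was 9.81-fold. All 3 cadmium arrays lay above all 3 copper arrays, with a difference of -0.73 ± 0.15 (SE), a call that was lost in 6 of 17 alternatives. WRKY28 and WRKY71 were nearest to each other among the 10 genes, at a distance of 1.68, although 45 and 27 other loci were closer to each.

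WRKY45 (Os05g0322900) is an activator that works in the salicylic acid pathway of rice and is needed for chemically induced resistance to blast and bacterial blight. The log2 ratios were 3.41, 3.47 and 3.11 on the copper arrays, and 0.73, 0.71 and 0.63 on the cadmium arrays. The copper mean was 10.03-fold and the cadmium mean 1.61-fold, and the difference of 2.64 ± 0.12 (SE) ranked 39 of all genes in favour of copper. Signals in scanner units were 12541, 10606 and 9567 in copper roots, against 1222, 871 and 1128 in water roots. They were 1147, 1119 and 1332 in cadmium roots, against 690, 722 and 932 in water roots. The increase with cadmium was small and even, with a spread of 0.05 (SD, n = 3) on the log2 scale. The activator WRKY45 and the repressors WRKY76 and WRKY62 thus lay on the same side of the comparison between the metals.

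WRKY13 (Os01g0750100), another activator, is known to promote resistance to blast and bacterial blight. The probe used for it, the brightest of 3, gave log2 ratios of -0.07, 1.05 and 1.23 on the copper arrays, and -0.04, 0.88 and 0.53 on the cadmium arrays. Replicate 1 of each metal stood apart from the other arrays, near no change. On those 2 arrays the probe was also far brighter in both channels, with water signals of 17420 and 11140 against 827 to 1998 on the other 4 arrays. Averaged on the log2 scale, the water signal was 12.6-fold higher on those 2 arrays than on the other 4, and 1.88% of all kept probes exceeded this. A further probe of WRKY13 was 8.63-fold brighter for water roots on the same 2 arrays, yet its ratios there were 0.99 for copper and 0.93 for cadmium, the highest of each metal. The part of this brightness in the ratio was not tested. A probe of WRKY76 that did not stand for its gene was also 8.27-fold brighter for water roots on those arrays. Other probes of these genes were dimmer there. The remaining probe of WRKY13 had 0.26 times the water signal of the other arrays, and further probes of WRKY76 had 0.30 and 0.34 times. On the shared slide alone another probe of WRKY13 was the brightest. The other probes of WRKY13 gave means of 0.78 and 1.22 with copper, and of 0.74 and 1.09 with cadmium, each with every array above 0. With the mean of all 3 probes WRKY13 was called higher with both metals, at 0.91 with copper and 0.76 with cadmium, and with the replicate number as a block both values of the brightest probe, 0.74 and 0.46, were called. No difference between the metals was called under any alternative, and its value ranged from 0.03 to 0.68.

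**Figure D3:**
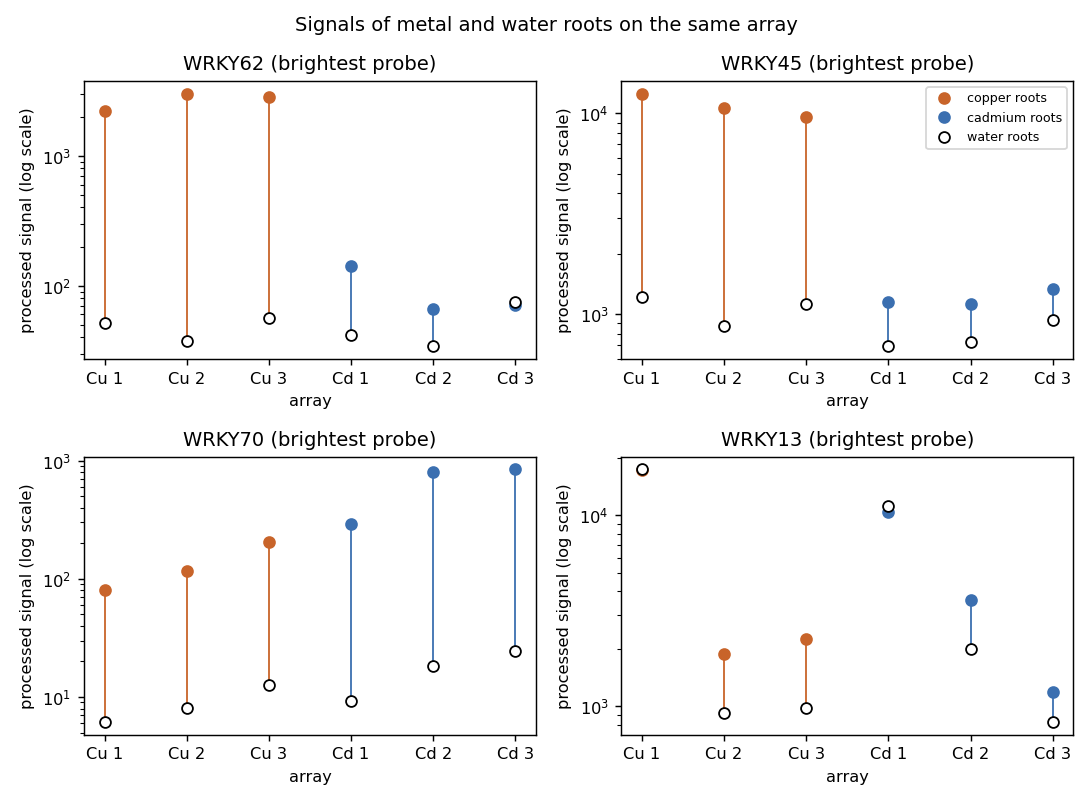
Processed signal in scanner units (vertical axis, log scale) on each array (horizontal axis), with metal-treated roots as filled points and the water roots of the same array as open points. WRKY62 and WRKY45 signals are high in copper roots alone, WRKY70 water signals are near background throughout, and the WRKY13 probe is brightest in both channels on replicate 1 of each metal.

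WRKY53, WRKY70 and WRKY24 are related factors of group I. WRKY53 and WRKY70 are known substrates of the MAP kinases that relay immune and wound signals in rice. WRKY53 (Os05g0343400), which promotes resistance to blast, had log2 ratios of 1.79, 2.14 and 2.22 on the copper arrays, and 2.63, 2.39 and 2.37 on the cadmium arrays. The groups did not overlap, with 2.37 the lowest cadmium value and 2.22 the highest copper value. The means were 4.14-fold with copper and 5.52-fold with cadmium, and the difference of -0.41 ± 0.14 (SE) was not called. The other probe of WRKY53 gave -0.65. With the mean of its probes the difference was -0.53 and was called, where 11.4% of all genes were.

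WRKY70 (Os05g0474800), which in rice turns resources towards defence against chewing insects, lay higher with cadmium. Its log2 ratios were 1.01, 0.78 and 1.07 on the copper arrays, and 2.57, 2.78 and 2.68 on the cadmium arrays. The groups did not overlap. The water signal was not well above background on any of the 6 arrays, so the changes against water are bounds, at least 1.94-fold with copper and at least 6.39-fold with cadmium. The fitted difference of -1.72 is one between 2 bounds, and no fold is drawn from it. In scanner units the signal was 81.0, 117 and 207 in copper roots, against 6.13, 8.06 and 12.7 in water roots. It was 290, 795 and 843 in cadmium roots, against 9.24, 18.5 and 24.5 in water roots. With those processed signals the log2 ratios averaged 3.87 with copper and 5.17 with cadmium, and the difference was -1.30, against -1.51 for WRKY28 in the same signals.

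WRKY24 (Os01g0826400) is known as a repressor of abscisic acid and gibberellin responses in the aleurone of rice grains. The probe used gave log2 ratios of 1.15, 2.87 and 2.85 on the copper arrays, and 1.90, 3.59 and 3.23 on the cadmium arrays. As for WRKY13, replicate 1 of each metal was the lowest, and the water signals of 3350 and 2075 on those arrays stood against 354 to 441 on the other 4. Its water signal was 6.85-fold higher on those 2 arrays, averaged as above. The 2 other probes gave means of 2.76 ± 0.19 and 2.58 ± 0.06 with copper, and of 3.21 ± 0.37 and 3.04 ± 0.17 with cadmium (SD, n = 3 each). On these the replicates were closer together and the metals did not overlap, with highest copper values of 2.94 and 2.65 below lowest cadmium values of 2.96 and 2.88. On the brightest probe the copper and cadmium arrays overlapped. Its difference of -0.62 ± 0.56 (SE) was not called, though it was with the replicate number as a block, where 16.2% of all genes were called. On the shared slide alone it was -0.55 and was called, where 25.1% of all genes were.

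WRKY72 (Os11g0490900) is known from rice aleurone cells, where it activates a promoter that abscisic acid induces, and from a part in susceptibility to bacterial blight. Its log2 ratios were 1.62, 1.42 and 1.84 on the copper arrays, and 1.49, 0.61 and 0.71 on the cadmium arrays. The values of copper replicate 2 and cadmium replicate 1 crossed. The difference of 0.69 ± 0.24 (SE) was not called. On the slide that held 2 arrays of each metal it was 0.97 and was called, where 25.1% of all genes were.

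Set against each other, 6 of the 10 genes were called different between copper and cadmium, where 10.6% of all genes were. WRKY76, WRKY62 and WRKY45 were higher with copper (3 of 10, against 6.57% of all genes), and WRKY28, WRKY71 and WRKY70 were higher with cadmium (3 of 10, against 4.06%). The copper and cadmium arrays did not overlap for 7 of the 10 genes, the 6 named and WRKY53, where 32.3% of 22610 genes did not overlap. The median difference over the 10 genes was -0.07, with genes on both sides, but the largest differences were those in favour of copper. The mean log2 ratio of the 10 genes was 2.54 to 2.69 on the copper arrays and 1.76 to 2.02 on the cadmium arrays. A constant effect of the dye on a probe drops out of the comparison between the metals. It stays in those with water, because the dyes were never swapped. The doses of the metals differed, so the comparison is one of these treatments and not of equal exposures.

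The order of the means was WRKY76, WRKY62, WRKY45, WRKY71, WRKY28, WRKY24, WRKY53, WRKY72, WRKY70 and WRKY13 with copper. With cadmium it was WRKY71, WRKY28, WRKY24, WRKY70, WRKY53, WRKY72, WRKY45, WRKY76, WRKY62 and WRKY13. These are orders of change and not of transcript level, which cannot be set between probes. WRKY70 is placed by lower bounds, and in the scanner's processed signals it averaged 3.87 with copper and 5.17 with cadmium. WRKY28, with water signals not well above background on some arrays, averaged 3.94 with copper and 5.44 with cadmium in those signals. There WRKY72 averaged 2.16, WRKY45 3.35 and WRKY71 3.33 with copper, and WRKY71 averaged 4.03 with cadmium. WRKY13 is placed by its brightest probe. Its other probes had cadmium means of 0.74 and 1.09, above those used here for WRKY45, WRKY76 and WRKY62. Neighbours closer than the larger of their SDs were, with copper, WRKY76 and WRKY62, WRKY45 and WRKY71, WRKY28, WRKY24 and WRKY53, and WRKY70 and WRKY13. With cadmium they were WRKY28, WRKY24 and WRKY70, and all of WRKY72, WRKY45, WRKY76, WRKY62 and WRKY13.

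Probes on the same gene gave the same direction between the metals in each of the 7 genes with more than 1 probe. For WRKY13 the differences were only 0.05 to 0.28 and the arrays of the metals overlapped, so its direction is not resolved. The 4 probes of WRKY76 had copper means between 3.71 and 5.08 and cadmium means between 0.42 and 0.71. The 4 probes of WRKY45 had copper means between 1.57 and 3.33, and the lowest came from a probe with signals of 322 to 507 in copper roots, far dimmer than the others. Both probes of WRKY28 and both of WRKY71 were higher with cadmium, by 1.25 to 1.35 and by 0.73 to 0.86 on the log2 scale. In all, 13 of the 23 probes were higher with copper than with cadmium, 10 were lower, and all 23 had means above 0 for both metals. Probes of 1 gene share the RNA and the array, so they check the probe and not the roots.

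**Figure D4:**
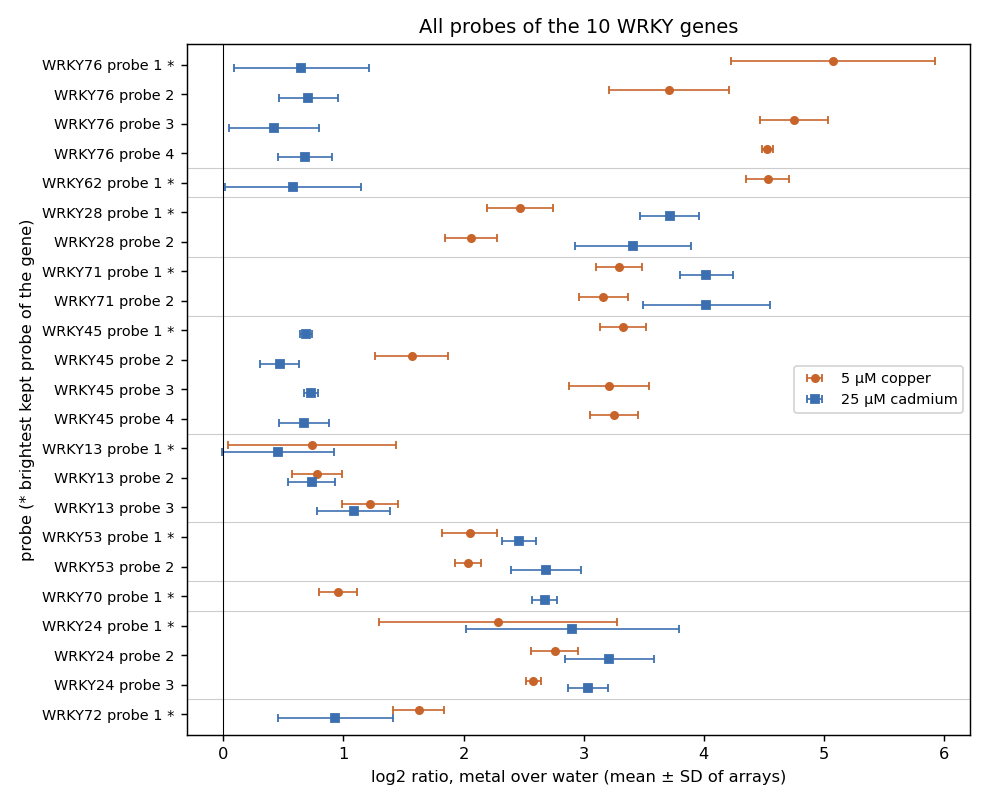
Mean log2 ratio of metal over water with SD (horizontal axis, n = 3 arrays per metal, 2 for copper at WRKY45 probe 3) for each of the 23 probes (vertical axis), with copper drawn above cadmium and the brightest probe of each gene starred. The probes of a gene lie on the same side, and the first probes of WRKY13 and WRKY24 have wider bars than the others of those genes.

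Loci with a pattern like that of a WRKY gene over the 6 arrays were looked up by Euclidean distance. The 3 nearest to the mean of all 10 genes were Os10g0147200 at 0.37, Os08g0482700 at 0.43 and Os05g0444200 at 0.45. For single genes the nearest were Os04g0581100 for WRKY45 (0.58), Os09g0385700 for WRKY28 (0.39), Os05g0164400 for WRKY71 (0.55), Os04g0488700 for WRKY70 (0.40) and Os03g0761100 for WRKY53 (0.31). WRKY76 had no locus outside the 10 genes nearer than Os01g0698800 at 1.69, where the mean was 5.04 with copper and 1.56 with cadmium. What these loci encode is not given in the files used here.

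On each array 77.0% to 82.4% of probes were well above background in the metal channel and 75.6% to 81.2% in the water channel, with 0 saturated spots. Copper replicates 2 and 3 and cadmium replicates 2 and 3 lay on 1 slide and replicate 1 of each metal on a slide of its own. The 2 copper arrays of the shared slide correlated at 0.964 over genes and the 2 cadmium arrays at 0.950, against 0.802 to 0.840 for pairs of 1 metal on different slides. On the shared slide alone, with 2 arrays per metal, the differences of copper minus cadmium on the same probes were 4.23 for WRKY76, 4.23 for WRKY62, 2.62 for WRKY45, -1.41 for WRKY28, -0.57 for WRKY71 and -1.81 for WRKY70. They kept the direction seen over all 6 arrays. Another probe of WRKY76 was the brightest on that slide, and it gave 4.70. The labelled tissue could not be checked against root markers, since the files used here do not name those genes.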

How the data were processed

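Per the file headers, Feature Extraction 10.7.1.1 read each array, and the authors deposited its unnormalized median intensity of spot and local background for both dyes. That program also subtracted background and balanced the dyes to give a processed intensity, per the file headers, and a log10 ratio of Cy5 over Cy3. A deposited series table gives log2 ratios. Its columns followed the scanner ratios with slopes of 1.00 and correlations of 0.988 or more, which settles scale and direction. Its median change over genes was -0.135 with copper and -0.106 with cadmium. The scanner ratios gave -0.133 and -0.105, so no further centring was seen. Column medians were -0.067, -0.161 and -0.191 (copper replicates) and -0.050, -0.145 and -0.080 (cadmium replicates).

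Background was corrected with normexp (offset 50), arrays were normalized by loess, and spots marked as outliers (0.137% to 2.85% per array) were left out. The offset shrinks the ratios of dim probes. Probes well above background on all 3 arrays of a metal in 1 channel, with at least 2 values per metal, were kept (33703), and each of 23425 genes was tested through its brightest probe. All 6 arrays entered 1 limma 3.58.1 fit in R 4.3.3 with a coefficient per metal (two-sided, Benjamini-Hochberg over all genes, threshold 0.05). Errors given as SE are from that fit, and the number of arrays limits the precision. On simulated ratios of 22610 genes for copper against water, the fit recovered 86% of changes of 1 and 98% of changes of 2 on the log2 scale. The simulation changed 100 genes by each size and drew the noise of each array independently. It did not carry the correlation of arrays on a shared slide, so the rates need not hold for these arrays.

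Named genes are the 10 members, all their probes, the loci on either side of the chromosome 9 pair, and the nearest loci by distance. Members, lists and tests were chosen with earlier results of these data known. Lists of other WRKY genes, linked defence genes and tissue markers were not used, as neither the files nor the reference table name those loci. Replicate numbers come from the titles. After group means were removed, copper and cadmium arrays of 1 number correlated at 0.37, 0.24 and 0.27, all above 0.1, so a blocked fit on the number was run, although numbers 2 and 3 share a slide and also correlated across numbers (0.23 and 0.19). Alternatives covered scaling, background, the dim-probe filter, the probe rule, slide, block and leaving out each array.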

Additional observations from a re-analysis of the deposited data

Results flagged for a closer look

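The changes with copper and with cadmium differed from each other by the fit's own difference term in 6 of the 10 genes, where 10.6% of all genes were called. As copper minus cadmium on the log2 scale, the difference was 4.42 for WRKY76, 3.96 for WRKY62 and 2.64 for WRKY45. It was -1.25 for WRKY28, -0.73 for WRKY71 and -1.72 for WRKY70, where it is a difference between 2 lower bounds. All 3 copper arrays lay on 1 side of all 3 cadmium arrays in each of these genes, as they did in 32.3% of 22610 genes. The same arrays gave the calls that picked these genes, so the lack of overlap adds no separate evidence. Groups of 3 arrays are too small for a test of single outlying arrays.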

How the results depend on the processing

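No value of a called gene changed sign in any alternative. Of 504 values of single genes under the alternatives, 463 moved by less than 1 SD and 41 by more, most of them with the scanner's processed signals or the deposited series table, and the cause was not tested. In the processed signals the copper means were 5.98 for WRKY76 and 5.80 for WRKY62. WRKY70 and WRKY28 moved further there. Their fold changes were 7.54 and 2.76 times as large with copper, and 5.63 and 3.31 times as large with cadmium. With a 2-fold minimum the genes called with copper numbered 8 in place of 9, where 7.83% of all genes were called in either direction. With cadmium they numbered 5 in place of 8 (5.77% of all genes). Between the metals WRKY71, at -0.73, fell out (3.82% of all genes). Leaving out 1 array at a time gave 9 to 10 genes called with copper, 7 to 8 with cadmium and 5 to 7 between the metals, while the share of all genes called in either direction was 24.5% to 49.0%, 19.1% to 37.5% and 5.36% to 12.8%. With the replicate number as a block, pairing copper and cadmium arrays, 10 genes were called with each metal and 7 between the metals, adding WRKY13 with both metals, WRKY76 with cadmium and the difference of WRKY24. Of all genes, 51.9%, 44.1% and 16.2% were called in that fit, against 42.9%, 34.0% and 10.6% without the block. With the slide as a random block (correlation 0.664) the counts were 9, 8 and 7, where 36.1%, 27.9% and 25.1% of all genes were called. The call of WRKY28 between the metals was lost in 3 alternatives. These were the scanner's processed signals, the same signals median centred and the deposited series table, which rest on 1 set of ratios. They are also counted as 3 in the calls lost for WRKY71 and WRKY62 and gained for WRKY76 with cadmium. WRKY28 and WRKY70 were absent where all arrays had to be well above background in both channels. The planned counts over other listed genes were not run, since those loci are not named in the files used here.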
